A study of Bombyx mori with 64 samples.

Results

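The probes described here are the 34 of 106 miRNA probes on a silkworm array that were broadly expressed in larval tissues. They were chosen by their measured signals. A tissue counted as expressing a probe when the normalized signal reached 1000 in at least 1 sex. A probe was taken when 4 to 10 of the 10 larval tissues expressed it, and SW-7 was left out. Of the other probes, 37 reached 1000 in 1 to 3 tissues and 34 in none. Because the larval signals made the choice, the larval levels below are a description without a test. The stages of metamorphosis were not used for the choice and were tested. The sexes were compared on the same larval arrays that made the choice, which took a signal from either sex, so that this comparison is not independent of it.

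MicroRNAs are short regulatory RNAs that pair with target messenger RNAs and lower their translation or stability. Some are made in nearly every cell type, where they act on growth, survival and general metabolism, whereas others mark 1 tissue or 1 stage. In holometabolous insects, pulses of ecdysone and the loss of juvenile hormone drive larval tissues through breakdown or remodelling, and some insect miRNAs follow these hormones. The files give each probe only as SW and a serial number. Therefore no miRNA name and no sequence is given here, and the role of single probes is not described. Some miRNAs had more than 1 probe on the array by the study's methods, so that 34 probes can stand for fewer miRNAs.

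All animals belonged to DaZao, a bivoltine strain of the domestic silkworm reared on mulberry leaves. Specimens from 10 tissues came from larvae on day 3 of the fifth instar. Head (HD), body wall (BW), anterior silk gland (ASG), posterior silk gland (PSG), midgut (MG), fat body (FB), hemocyte (HC) and malpighian tubule (MT) were taken from females and males, and ovary (OV) and testis (TE) from 1 sex each, which made 18 specimens. Another 14 specimens covered metamorphosis in body wall, whole silk gland (SG), midgut and fat body of mixed sex: day 7 of the fifth instar, the start of spinning (0 h), prepupae (0 h) and, for body wall and fat body only, pupae. The pupal body wall is labelled day 1, and the labels of the pupal fat body give day 1 and day 2. The RNA of a specimen went onto 2 slides, a and b, whose mean is 1 value. Each tissue and stage of metamorphosis, and each tissue and sex of the larvae, had 1 specimen, and how many animals it held is not given in the sources used here. With fewer cells of a type and less RNA per cell a signal falls alike, and these cannot be told apart in such specimens. The labelled tissues could not be checked against marker genes, since the array holds miRNA probes only.

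Values are normalized signals, in the units that the authors deposited. The larval and the metamorphosis arrays were scaled by different methods, so that a level is not compared between them. Signals of different probes are not compared either, because probes differ in how well they hybridize. For these probes the median absolute log2 difference between slides a and b was 0.169 in the larval tissues and 0.181 in metamorphosis. Control spots named blank (3 per array) averaged 7 to 159 in 14 larval specimens, whereas the body wall had 2240 and 2377 and the malpighian tubule 988 and 1978. In metamorphosis they lay between 113 and 3856, at 1000 or more in 11 of the 14 specimens. The array names hold run codes. Those of the larval body wall and malpighian tubule recurred in metamorphosis, where they covered every specimen but the body wall at day 7. The codes of the other larval tissues did not recur. Under the shared codes the blank spots lay between 201 and 3856, and the body wall at day 7 had 113. Other spots, named Blank, had medians of 5 to 104. The sources used here do not say what either kind of spot contains, and their part in the signals was not tested.

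In the larva, 12 probes were expressed in all 10 tissues: SW-9, SW-25, SW-38, SW-45, SW-46, SW-53, SW-57, SW-58, SW-59, SW-61, SW-69 and SW-76. A further 4 (SW-21, SW-27, SW-35 and SW-55) were expressed in 9 tissues, SW-72 in 8 and SW-40 in 7. The 7 probes SW-8, SW-18, SW-20, SW-28, SW-33, SW-81 and SW-92 were expressed in 6 tissues. SW-54, SW-68, SW-74 and SW-106 were expressed in 5, and SW-1, SW-17, SW-26, SW-41 and SW-75 in 4. The members nearest to the lower limit were SW-41, SW-26 and SW-28. In the tissue that decided, the one ranked 4 by signal, SW-41 had 1129 (hemocyte), SW-26 1208 (body wall) and SW-28 1493 (posterior silk gland). Just outside lay SW-52 with 986 (fat body), SW-50 with 957 (posterior silk gland) and SW-70 with 878 (head). When a signal also had to reach the blank spots of its own specimen, an alternative chosen after seeing the data, 30 of the 34 stayed members, without SW-1, SW-17, SW-26 and SW-41, and the 12 probes of all tissues stayed so.

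**Figure D1:**
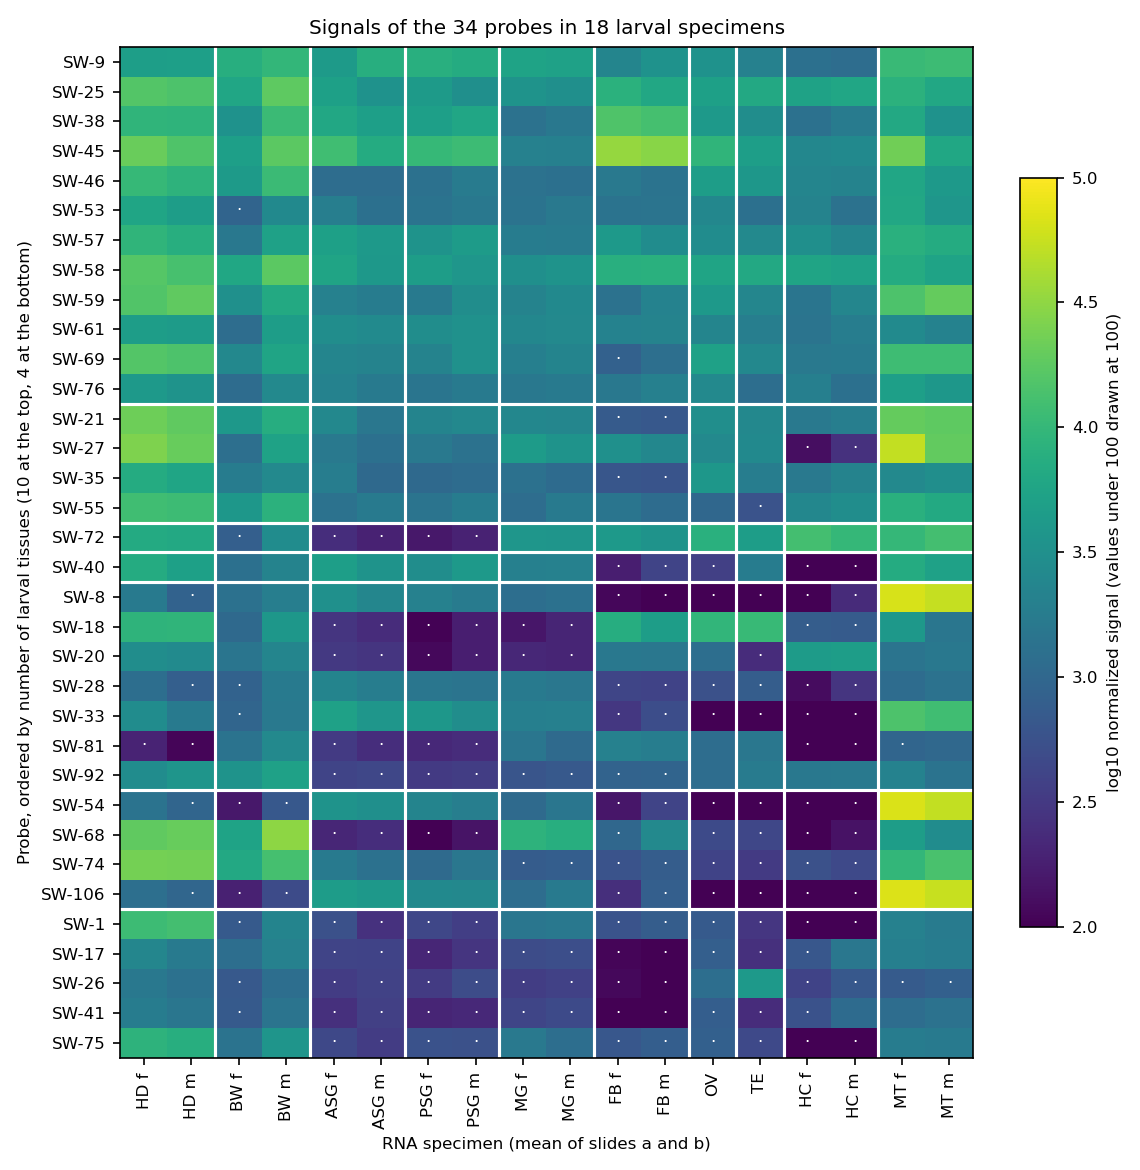
Normalized signals (log10 colour scale, values under 100 drawn at 100) of the 34 probes in the 18 larval specimens, by tissue and sex (f, female; m, male), with dots on signals under 1000. The 12 probes at the top reached 1000 in every tissue, and dots are frequent in the fat body, gonads and hemocyte of the lower rows.

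Head and malpighian tubule were the tissues that most of these probes shared. Of the 34, 33 reached 1000 in the head, 33 in the malpighian tubule, 32 in the body wall and 27 in the midgut. Over all 106 probes the body wall had the most, 65, followed by the malpighian tubule with 50, the head with 45 and the midgut with 29. Both silk gland sections had 23, the ovary 22, the testis 21, the hemocyte 20 and the fat body 19, where all 106 probes gave 20 to 24. The run codes in the array names differed between the larval tissues, except that ovary and testis shared one, so that tissue and run cannot be told apart in the larva. Those of body wall and malpighian tubule, the tissues with the highest counts over all 106 probes, were shared with metamorphosis arrays. The head had the highest mean of a probe for 16 of the 34 probes and the malpighian tubule for 10, whereas the lowest was in the hemocyte for 9 and in the fat body for 7. SW-81 was the probe that stayed under 1000 in the head (197 in the higher sex), and SW-26 the one that did so in the malpighian tubule (825). In the female body wall 12 of the 25 signals at 1000 or more lay under the blank spots, in the male body wall 9 of 32 and in the male malpighian tubule 9 of 33. In the other 15 larval specimens 0 did.

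Among the 12 probes of all tissues, some varied little between tissues and others varied more. SW-61 was the most even, with a lowest signal of 1169 in the female body wall, a median of 2518 over the 18 specimens and a highest of 4726 in the female head. Between the tissue with its highest and the one with its lowest mean it differed 2.79-fold. SW-76 ranged from 1162 (female body wall) over a median of 1838 to 4887 (female malpighian tubule), 3.54-fold between tissue means. SW-53 went from 932 to 6294 in the same specimens, with a median of 1611, and 4.04-fold between tissue means.

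SW-25 and SW-58 had nearly the same profile. SW-25 ran from 3115 (male posterior silk gland) through a median of 5951 to 17815 (male body wall), and SW-58 from 3119 (female midgut) through 5659 to 17501 (male body wall). SW-57 had 1574 in the female body wall at the low end, a median of 3846 and 9217 in the female head. All 3 had their highest tissue mean in the head and their lowest in the midgut, 4.50-fold to 4.63-fold apart.

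The remaining probes of this set each had tissues where they stood out. SW-45 was highest in the fat body, at 33558 in the female and 28976 in the male, against 2066 and 2028 in the midgut and a median of 9693. SW-38 was similar, with 15057 in the female fat body, a median of 4928 and a low of 1310 in the female hemocyte. Both were lowest in the midgut by tissue mean, 15.2-fold and 9.49-fold under the fat body. SW-59 was high in the head (15325 and 18500) and the malpighian tubule (14444 and 19700.3) and had a median of 2511, with 1363 in the female fat body as its lowest. SW-69 reached 15860.2 in the female head, had a median of 2399 and fell under 1000 in 1 specimen, the female fat body (861). SW-46 lay between 1166 (female anterior silk gland) and 10954 (male body wall) with a median of 2229. SW-9 lay between 1191 (male hemocyte) and 11311 (male malpighian tubule) with a median of 5019, and it was the 1 probe of the set that was lowest in the hemocyte by tissue mean besides SW-61.

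The probes missing from a few tissues lacked different ones. SW-21 and SW-35 reached 1000 everywhere but the fat body, where the higher sex had 729 and 627. SW-55 stayed under 1000 only in the testis (585). SW-27 missed the hemocyte alone, where the female had 129 and the male 270, while the malpighian tubule had 52838 and 18834. Its tissue means thus differed 169-fold. SW-72 was low in both silk gland sections (156 to 246) and high in the hemocyte (12598 and 9956) and the malpighian tubule (9971 and 12658). SW-40 was under 1000 in fat body, ovary and hemocyte, at 410, 366 and 49.5 in the higher sex.

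The 4 probes SW-8, SW-33, SW-54 and SW-106 had one shape. Each was brightest in the malpighian tubule, followed by the anterior silk gland, and lay under 100 in ovary and testis. In females and males the malpighian tubule had 66521 and 55065 for SW-8 and 69961 and 56371 for SW-106, against 3240 and 2356, and 4509 and 4007, in the anterior silk gland. The tubule spots were close to the scanner maximum, at a net signal of at least 64000, for SW-106 in 12 of 12 spots, for SW-54 in 8 of 12 and for SW-8 in 4 of 12, so that the size of these excesses cannot be read. SW-18, in contrast, was brightest in the testis (10469), ovary (9411), head (8990 and 9230) and fat body (7370 and 4696), and stayed at 103 to 293 in silk gland and midgut. SW-26 also had its highest signal in the testis (4105), and SW-20 in the hemocyte (4690 in the higher sex). SW-68 had its highest signal in the male body wall (30712) and stayed at 92 to 246 in the silk gland. SW-74, SW-1, SW-75, SW-17 and SW-41 were highest in the head, at 23357, 12840, 8587, 2351 and 1795 in the higher sex. SW-92 and SW-81 had their highest specimen in the male body wall (5240 and 2563), and SW-28 in the female anterior silk gland (2269).

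Some pairs of probes followed each other across all specimens. Of the 561 pairs, 5 had a Pearson correlation of at least 0.95 between log2 signals both over the 18 larval and over the 14 metamorphosis specimens, whereas the medians over all pairs were 0.468 and 0.194. These were SW-17 with SW-41 (0.988 and 0.992), SW-25 with SW-58 (0.975 and 0.976), SW-54 with SW-106 (0.994 and 0.968), SW-69 with SW-21 (0.965 and 0.956) and SW-53 with SW-76 (0.965 and 0.952). SW-8 had 0.936 and 0.966 with SW-54, and 0.915 and 0.973 with SW-33. Both probes of a pair were read on the same slides, so that they share the depth and scaling of each array. Signals under 100 were set to 100, which made SW-54 and SW-106 equal in ovary, testis and hemocyte. SW-8 and SW-33 were also at this floor in ovary and testis. Most tubule spots of SW-54 and all those of SW-106 were close to the scanner maximum. The part of floor and maximum in these correlations was not tested. Whether any pair stands for the same miRNA is not given in the files.

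Sex was compared over the 16 specimens of the 8 tissues taken from both sexes, with tissue as a block. By limma, 0 of the 34 probes and 0 of all 55 tested (0%) differed at a Benjamini-Hochberg adjusted p under 0.05. At an unadjusted p under 0.05 there were 1 of the 34 and 2 of the 55, and the smallest adjusted p was 0.741. The median female minus male difference was -0.11 on the log2 scale over the 34 and -0.11 over the 55. Within tissues the direction varied. All 34 probes were higher in the male body wall than in the female one. The median female minus male difference there was -1.16 over the 34 and -0.91 over all 106 probes, and the female and male body wall had blank spots of 2240 and 2377. Head (28 of the 34) and anterior silk gland (27) had more probes higher in the female, with medians of 0.25 and 0.32, beside 0.24 and 0.11 over all 106 probes. Each of these comparisons has 1 specimen a sex and no test.

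During metamorphosis the 34 probes were again widely expressed. They reached 1000 in 438 of 476 combinations of probe and specimen (92.0%), and the other 72 probes in 412 of 1008 (40.9%). The probes at 1000 in 1 to 3 larval tissues had 61.2%, and those in none 17.0%. Of the 34 probes, 19 were at 1000 or more in all 14 specimens, against 3 of the other 72. Among the 12 probes of all larval tissues these were SW-9, SW-25, SW-38, SW-45, SW-46, SW-53, SW-57, SW-58, SW-61, SW-69 and SW-76. Those of fewer larval tissues were SW-18, SW-21, SW-27, SW-35, SW-55, SW-74, SW-75 and SW-92. SW-59 was the exception among the 12, with 12 of the 14 specimens. SW-26 had the fewest, 7 of 14, followed by SW-106 with 9.

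All 34 probes reached 1000 in the midgut at each of the 3 stages and in the silk gland at day 7. Over all 106 probes these specimens had 84, 67 and 73, and 91. In the body wall of day 7 larvae 24 of the 34 did, and 31 of all 106, both the lowest counts of the 14 specimens. Of the 438 signals at 1000 or more, 59 lay under the blank spots of their own specimen, 25 of them in the 3 silk gland specimens and 0 in the body wall at day 7 and at the start of spinning and in midgut and fat body of prepupae. Counted only from the blank spots up, an alternative chosen after seeing the data, 379 of 476 combinations were left.

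**Figure D2:**
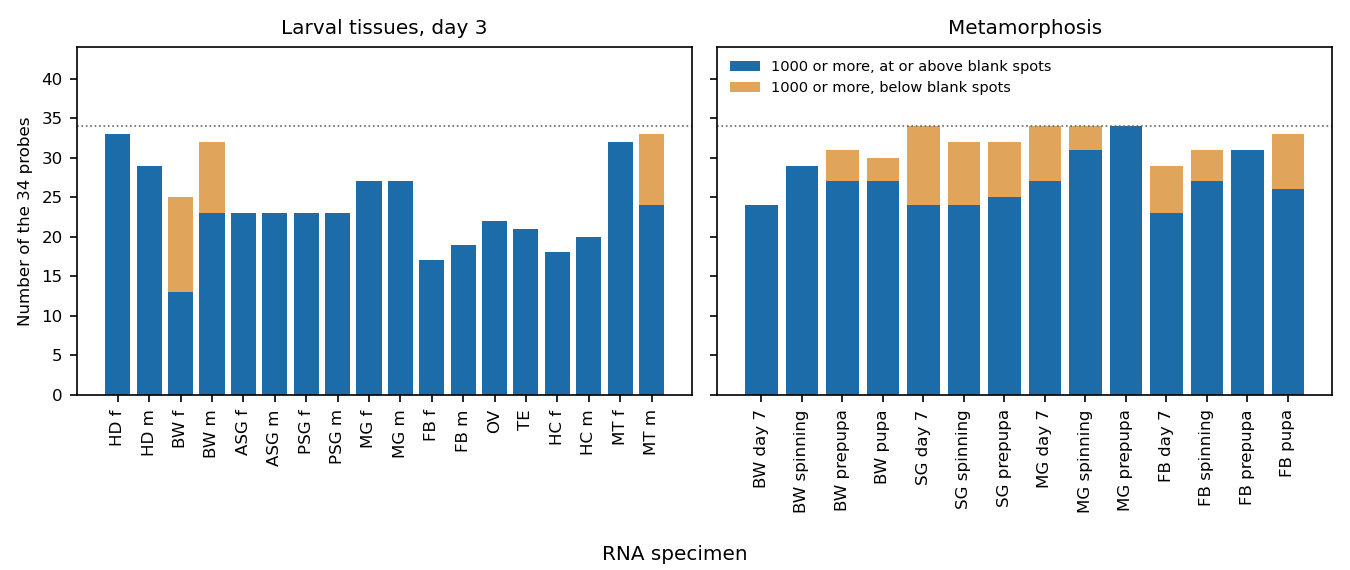
Number of the 34 probes whose normalized signal reached 1000 in each larval (left) and metamorphosis (right) specimen, split into signals at or above (blue) and below (orange) the mean of the blank spots of the same specimen; the dotted line marks 34. All 34 reach 1000 in the 3 midgut specimens of metamorphosis, and 24 in the body wall at day 7.

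Most of these probes differed between the 4 tissues of metamorphosis. Over the 14 specimens, with stage as a factor, 20 of the 34 passed the F test of limma, beside 61.4% (51 of 83) of all probes tested. Their share was thus close to that of all probes tested. All 34 were among the 83 probes that reached 1000 in at least 3 specimens. By breadth in the larva, 4 of the 12 probes of all tissues passed (SW-9, SW-45, SW-59 and SW-69) and 16 of the 22 others. The tissue with the highest and the one with the lowest mean differed by 1.30 to 5.89 on the log2 scale for those that passed (median 2.46), and by 0.66 to 1.40 for the 14 that did not (median 0.99). SW-17, SW-20, SW-21, SW-25, SW-35, SW-38, SW-41, SW-46, SW-53, SW-57, SW-58, SW-61, SW-76 and SW-81 were those 14.

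Each tissue was then set against the mean of the other 3. In the body wall 5 of the 34 were higher (9.64% of all probes tested) and 4 lower (30.1%), and in the silk gland 8 were higher (31.3%) and 6 lower (9.64%). In the midgut 8 were higher (13.3%) and 3 lower (4.82%), and in the fat body 3 were higher (4.82%) and 14 lower (25.3%). The directions depend on the scaling. The median difference over all 83 probes was -0.64 in the body wall, 0.79 in the silk gland, 0.52 in the midgut and -0.61 in the fat body, and over the 34 it was -0.07, 0.14, 0.59 and -0.50. With the arrays median-centred, the medians over all 83 became 0.21, -0.11, 0.00 and -0.03. Then 15 of the 34 were higher and 4 lower in the body wall, beside 24 and 9 of all 83. In the silk gland 0 were higher and 18 lower, beside 3 and 22 of the 83. For the midgut 7 were higher and 4 lower, beside 9 and 6. For the fat body 9 were higher and 5 lower, beside 11 and 9. The probes described next are those whose calls held under this centring, unless stated.

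**Figure D3:**
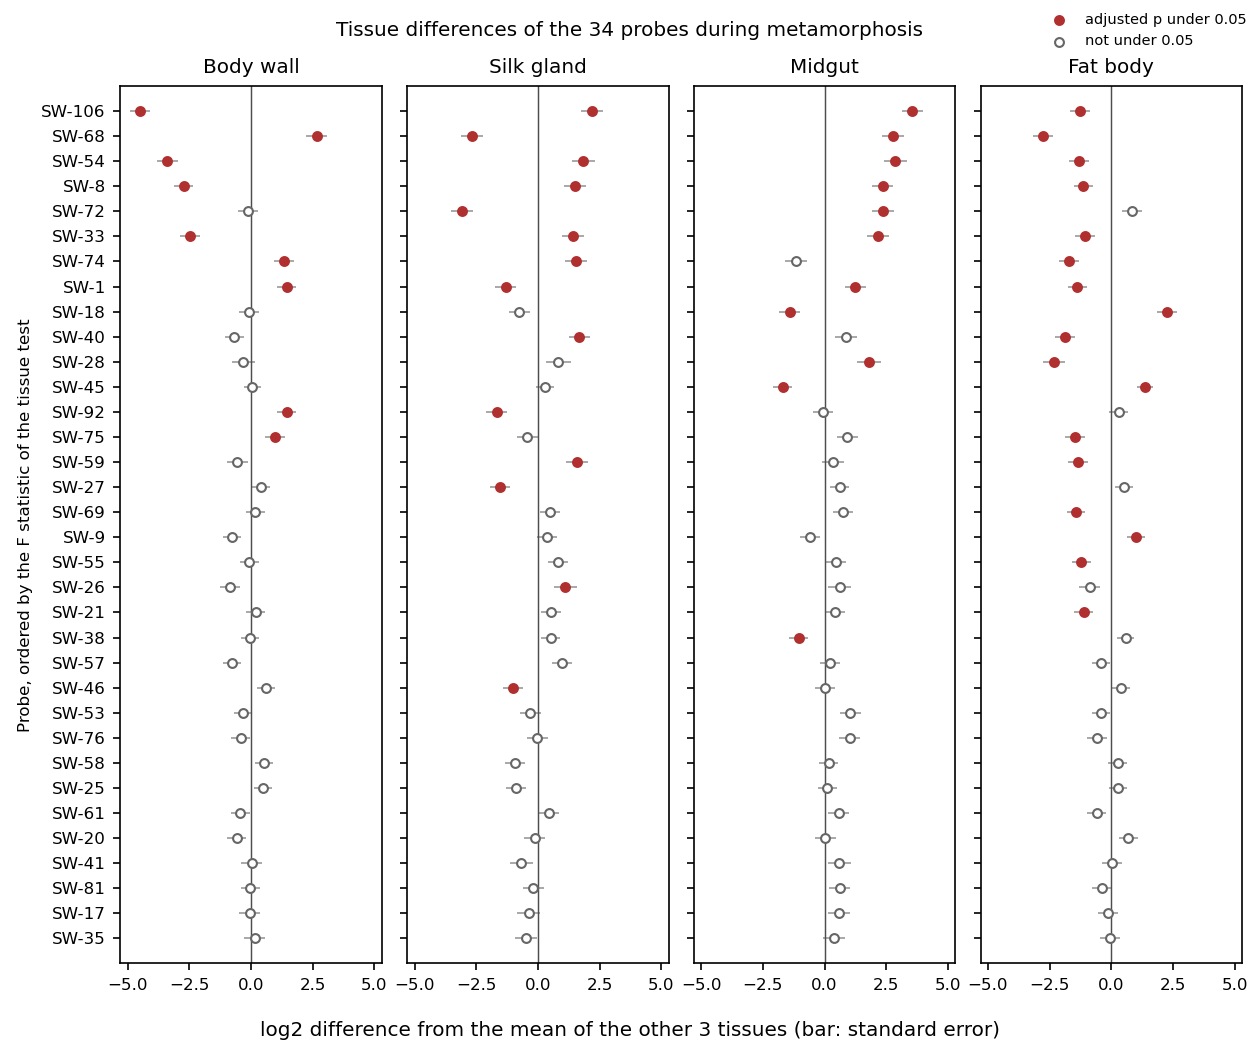
Differences of the 34 probes between each of 4 tissues and the mean of the other 3 over the 14 metamorphosis specimens, as log2 values, with bars for the standard error of limma. Filled points passed an adjusted p of 0.05; SW-106 at the top spans from -4.50 in the body wall to 3.56 in the midgut.

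SW-106, SW-54, SW-8 and SW-33 were low in the body wall and high in the midgut. For SW-106 the body wall had 284, 84.3, 316 and 296 from day 7 to the pupa, the fat body 437, 1789, 1681 and 1606, the silk gland 7242, 3671 and 10567, and the midgut 12799, 20468 and 9296. None of the body wall signals reached the lowest signal of another tissue, and after day 7 they lay under the blank spots (1110, 2851 and 2401). The difference from the mean of the other tissues was -4.50 in the body wall (standard error 0.40, adjusted p = 6.24e-15 by limma) and 3.56 in the midgut (standard error 0.44, adjusted p = 1.58e-09). The size depends on how such low signals are treated. With a floor of 1000 the body wall difference was -2.35 (adjusted p = 2.06e-09) and the midgut difference 2.66 (adjusted p = 1.38e-09). With median-centred arrays they were -3.65 (adjusted p = 0.000106) and 3.04 (adjusted p = 0.000843).

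SW-54 had body wall signals of 314, 186, 1630.3 and 587 and midgut signals of 10256, 15883 and 9374, and differed from the other tissues by -3.40 and 2.87. SW-8 lay at 380, 893, 1965 and 904 in the body wall and at 10997, 16207 and 10376 in the midgut, with differences of -2.74 and 2.35. For SW-33 the body wall had 448, 815, 1661 and 809, the midgut 15417, 11292 and 4546, and the differences were -2.49 and 2.15. In all 3 probes the midgut signals lay above all those of the body wall, whose signals after day 7 were under the blank spots as well. With a floor of 1000 the body wall differences of SW-54, SW-8 and SW-33 were -2.13, -2.26 and -2.01, each past the threshold. Each of these 8 calls in body wall and midgut held with 1 specimen left out in turn. The same 4 probes were higher in the silk gland, by 1.41 to 2.19, and lower in the fat body, by -1.07 to -1.31, but these calls were lost with median-centred arrays, and those of the fat body also without its day 7 specimen (-0.69 to -1.05, adjusted p of 0.119 to 0.331). In the silk gland SW-8 and SW-33 also missed the threshold without its day 7 or its prepupal specimen. Within specimens of 1 run code, SW-106 had 316 in the body wall and 10567 in the silk gland of prepupae, and 84.3 in the body wall, 1789 in the fat body and 3671 in the silk gland at the start of spinning.

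SW-68 split the 4 tissues into pairs. Body wall (20964, 48302, 33226 and 38574) and midgut (35324, 28185 and 39277) were high, and silk gland (4088, 767 and 2619) and fat body (1094, 944, 6422 and 2492) were low. The lowest high signal was above the highest low one. The differences were 2.65 in the body wall (standard error 0.41, adjusted p = 2.52e-07) and 2.78 in the midgut (standard error 0.45, adjusted p = 1.3e-06), and -2.66 and -2.77 in silk gland and fat body. At the start of spinning, body wall, silk gland and fat body shared a run code and had 48302, 767 and 944. The silk gland signals of SW-68 at the start of spinning and in prepupae lay under the blank spots (1807 and 3856). So did its fat body signals at day 7 and at the start of spinning (1440 and 1646).

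SW-1 had the same pairing at smaller differences. In the body wall it had 1978, 5628, 7563 and 6315 and in the midgut 4288, 4282 and 3588, but 1297, 1099 and 907 in the silk gland and 593, 1289, 1498 and 1275 in the fat body. The differences were 1.44, 1.25, -1.31 and -1.39, in this order. The fat body signals of SW-1 lay under the blank spots (1440, 1646 and 1610) except in prepupae. The midgut difference was lost without the midgut at day 7 (0.92, adjusted p = 0.385) or at the start of spinning or without the silk gland of prepupae. That of the silk gland was lost without its spinning or its prepupal specimen (-0.98, adjusted p = 0.154), and that of the fat body without its day 7 specimen (-1.19, adjusted p = 0.0526).

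In the silk gland, SW-72 was far lower than elsewhere. It had 1653, 1733 and 649 there, and 13473, 29963 and 21749 in the midgut, 12673, 11538, 8157 and 7791 in the fat body and 2057, 6965, 8963 and 9238 in the body wall. All silk gland signals lay under those of the other tissues. They also lay under the blank spots of these specimens (3401, 1807 and 3856), as did the silk gland signals of SW-1 and SW-92, and the part of the blank spots in these differences was not tested. The difference was -3.07 (standard error 0.44, adjusted p = 8.46e-08). In the midgut it was higher by 2.35 (standard error 0.44, adjusted p = 1.56e-05). SW-92 and SW-27 were also lower in the silk gland, by -1.68 and -1.54 (adjusted p = 0.00169 and 0.00198). For SW-92 the silk gland had 1248, 1241 and 2070.2, and the body wall, where it was higher by 1.44, had 4359, 10028, 10529 and 11812. Without the body wall at the start of spinning this last difference was 1.24 (adjusted p = 0.0613).

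The fat body had 3 probes above the other tissues. SW-18 had 13427, 21088, 14121 and 14509 there, above every signal of the other tissues, which ran from 1740 in the midgut to 6387 in the body wall. At day 7 and at the start of spinning its midgut signals lay under the blank spots (3748 and 2602). So did its silk gland signals at these stages (3401 and 1807). The fat body difference was 2.26 (standard error 0.39, adjusted p = 5.77e-06). In the midgut the difference was -1.41 (adjusted p = 0.011), which missed the threshold without the midgut at day 7 (adjusted p = 0.0801) or at the start of spinning (adjusted p = 0.0785). SW-45 had 59654, 44172, 38635 and 41659 in the fat body and 15029, 12083 and 5301 in the midgut, with differences of 1.37 (adjusted p = 0.00138) and -1.70 (adjusted p = 0.00024). One silk gland signal, 38967 at day 7, reached into the range of the fat body. SW-9 was the third, with 11128, 77566, 42982 and 70820.2. Its difference was 1.01 (adjusted p = 0.0311), and 1.72 with the run code as a fixed block (adjusted p = 0.0124). The call held in 9 of 13 alternatives. It was lost without the filter, on slide b alone, without a variance trend and without the pupae. It also missed the threshold without any of 7 of the 14 specimens (adjusted p of 0.06 to 0.164). Of the 24 fat body spots of SW-9, 7 were close to the scanner maximum.

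Other probes were lower in the fat body. SW-40 had 1436, 1241, 1969 and 1572 there and 7199, 10744 and 9853 in the silk gland, and was lower by -1.87 (adjusted p = 0.000195), although the body wall at day 7, with 897, was below the fat body. SW-75 was lower by -1.47 (adjusted p = 0.00248), with 1041, 1399, 1782 and 1440.3 against 2336, 4518, 10925 and 5207 in the body wall. The fat body signals of SW-40 and SW-75 were under the blank spots (1440, 1646 and 1610) except in prepupae. For SW-28 the fat body had 181, 567, 661 and 1151, a difference of -2.32 (adjusted p = 5.5e-05), and of -1.42 with a floor of 1000 (adjusted p = 5.56e-05). With the slide letter as a replicate block the adjusted p was 0.229, and with the run code as a fixed block 0.131. SW-28 was higher in the midgut by 1.80. The slides of the midgut at the start of spinning differed by 6.18 on the log2 scale for this probe, and the difference was 0.76 on slide a alone (adjusted p = 0.414) and 2.84 on slide b alone (adjusted p = 0.000977). It was a call lost in 8 of 13 alternatives and without the body wall or the midgut at day 7.

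SW-74, SW-59, SW-69, SW-55 and SW-21 were lower in the fat body as well, by -1.12 to -1.73, and SW-40, SW-59, SW-74 and SW-26 were higher in the silk gland, by 1.11 to 1.68. None of these 9 differences passed with median-centred arrays. Leaving out 1 specimen also ended several of them. In the silk gland those of SW-59 (0.82, adjusted p = 0.146) and SW-74 (1.03, adjusted p = 0.0808) were lost without the specimen at the start of spinning, and that of SW-26 without any of 11 of the 14 specimens. In the fat body those of SW-59 and SW-21 were lost without the specimen at the start of spinning (adjusted p = 0.0846 and 0.113), that of SW-21 also without either pupal specimen or the prepupal fat body, and that of SW-55 without day 7 (adjusted p = 0.127). SW-74 and SW-75 were higher in the body wall, by 1.35 and 0.97. The difference of SW-74 was lost without the body wall at day 7 (adjusted p = 0.0742) or at the start of spinning (adjusted p = 0.117), and that of SW-75 without any of 10 of the 14 specimens, most so without the body wall of prepupae (0.61, adjusted p = 0.273).

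SW-38 in the midgut (-1.05, adjusted p = 0.05) and SW-46 in the silk gland (-1.02, adjusted p = 0.0414) were at the edge of the threshold, and were lost without any of 12 and any of 10 of the 14 specimens.

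**Figure D4:**
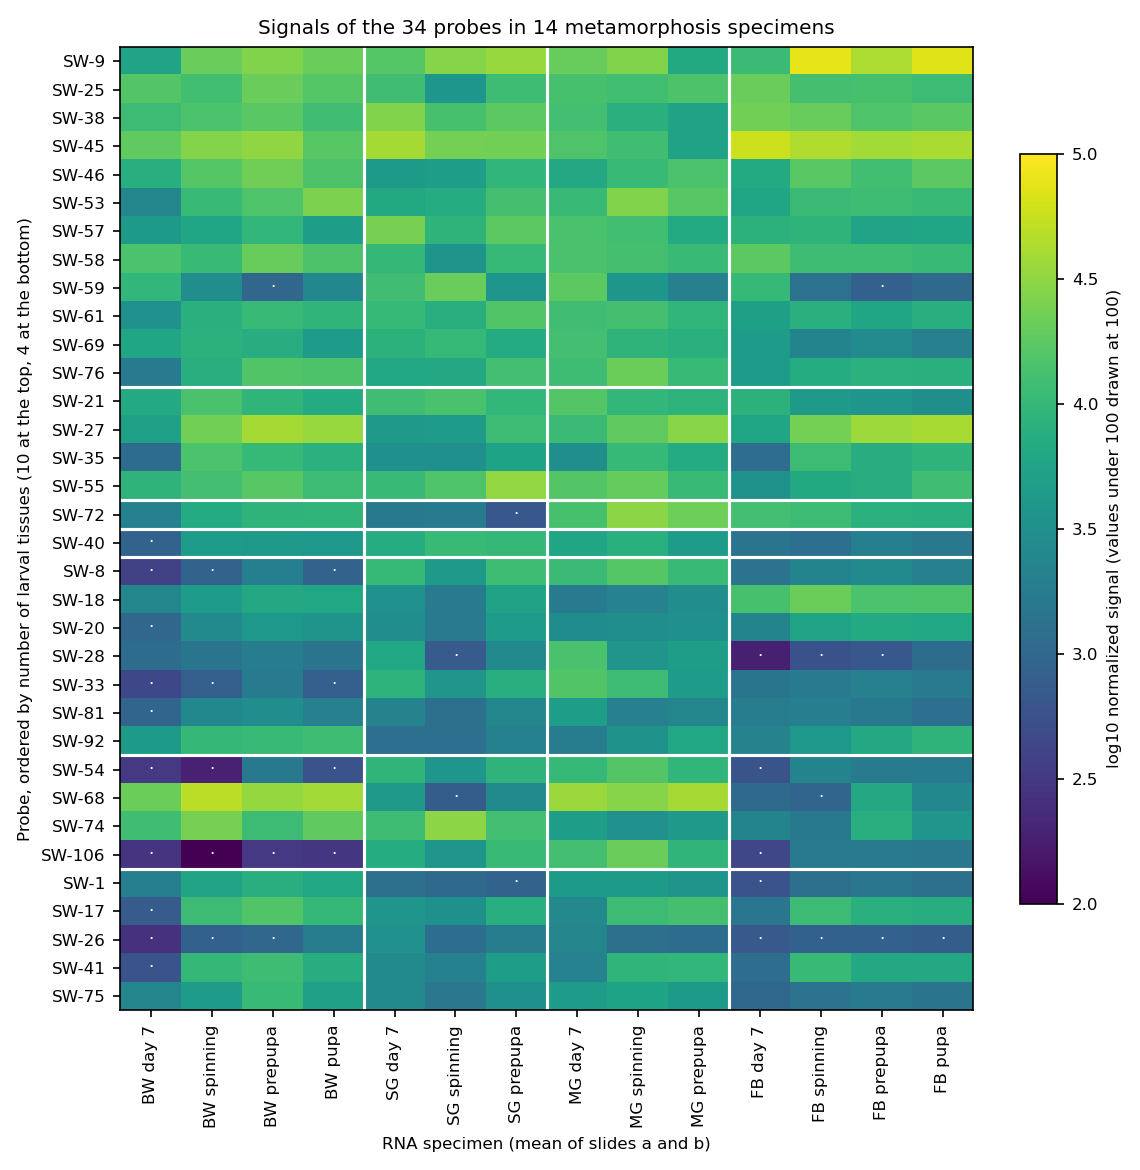
Normalized signals (log10 colour scale, values under 100 drawn at 100) of the 34 probes in the 14 specimens of metamorphosis (BW, SG, MG and FB), from day 7 of the fifth instar to the pupa, with dots on signals under 1000. SW-106, SW-54, SW-8 and SW-33 are dark in the 4 body wall columns, and SW-59 is darker in the later columns of body wall and fat body.

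Next, the change over the stages was tested as 1 slope per stage step common to the 4 tissues, with tissue as a factor. Of the 34 probes 6 rose (7.23% of the 83 tested) and 1 fell (1.20%). The 6 and the 1 were also the only calls among all 83. The median slope was 0.26 over the 34 and 0.21 over the 83. At an unadjusted p under 0.05 there were 12 of the 34 and 15 of the 83. With median-centred arrays 1 of the 34 rose (SW-27) and 3 fell (SW-38, SW-45 and SW-59), beside 1 and 3 of all 83.

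SW-59 fell from the day 7 larva onward. Its signal went from 9650 to 2917, 965 and 2543 in the body wall, from 17484 to 3747 and 2025 in the midgut, and from 10164 to 1344, 838 and 1086 in the fat body. In the silk gland it was 12053 at day 7, rose to 20811 at the start of spinning and was 3642 in prepupae. Prepupae were thus below day 7 in all 4 tissues, by 8.64-fold in the midgut and 12.1-fold in the fat body. For the other tissues no fold is given, since the prepupal signals lay under the blank spots (2851 in the body wall, 3856 in the silk gland), as did those of the fat body at the start of spinning (1646) and in pupae (1610.0). The common slope was -0.98 log2 units per stage (standard error 0.21, adjusted p = 0.00478 by limma). It passed with any 1 specimen left out (adjusted p of at most 0.0481) and under median centring (-1.15, adjusted p = 0.0376). With the run code as a fixed block it was -1.01 (adjusted p = 0.062). The 4 fat body specimens carried the same run code, so did the midgut at day 7 and at the start of spinning, and so did the silk gland at day 7 and as prepupae, and SW-59 fell within each of these sets.

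SW-27 rose in every tissue. The body wall had 5267, 23044, 39001 and 34776, the fat body 5998, 23511, 36195 and 40375, the midgut 11193, 18760.2 and 29670.2, and the silk gland 4169, 4603 and 11494. Every later specimen was above day 7 of its tissue. Prepupae exceeded day 7 by 7.41-fold, 6.04-fold, 2.65-fold and 2.76-fold, and 2 of 6 spots in the body wall of prepupae were close to the scanner maximum. The common slope was 0.84 (standard error 0.15, adjusted p = 0.000852). It passed in all 13 alternatives and without any 1 specimen (0.72 to 0.93, adjusted p of at most 0.0159).

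SW-17 and SW-41 moved together, as they did over the larval tissues. SW-17 went from 719 to 11322, 15430 and 9950.0 in the body wall, from 1510 to 11419, 8131 and 7412 in the fat body, from 2578 to 11354 and 12998 in the midgut and from 3669 to 3224 and 7501 in the silk gland. SW-41 went from 607 to 10076, 11858 and 7471 in the body wall and from 1179 to 10884, 6419 and 6447 in the fat body. In body wall, midgut and fat body most of the increase lay between day 7 and the start of spinning, where SW-17 rose 15.8-fold in the body wall and 7.56-fold in the fat body. At day 7 the midgut signals of SW-17, SW-41 and SW-35 lay under the blank spots (3748). So did the fat body (1440.0) and silk gland (3401) signals of SW-41 and SW-35. The common slopes were 0.89 (standard error 0.23, adjusted p = 0.0129) and 0.84 (standard error 0.23, adjusted p = 0.0202). With the run code as a random block they were 0.74 and 0.69 (adjusted p = 0.063 and 0.0642), and without the body wall at day 7, the single specimen of its run code, 0.58 and 0.53 (adjusted p = 0.182 and 0.278). Both calls were also lost without the midgut or the fat body at day 7, with adjusted p of 0.0591 to 0.114.

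SW-35, SW-53 and SW-92 also rose. SW-35 had 1151 in the body wall and 1197 in the fat body at day 7, and 13995 and 11455 at the start of spinning, with a slope of 0.72 (adjusted p = 0.0333). SW-53 had 2405, 10617, 15121 and 25927 in the body wall, and a slope of 0.60 (adjusted p = 0.0202). For both, the run code as a random block (adjusted p = 0.0848 and 0.0537) or leaving out the body wall at day 7 (0.29 and 0.182) ended the call, as did leaving out the body wall of prepupae for SW-35 (0.0552) and of pupae for SW-53 (0.138). For SW-92 the body wall signals were 4359, 10028, 10529 and 11812, with 1796, 3338 and 6072 in the midgut and 2170, 3996, 6432 and 8918 in the fat body, an increase at every step that the silk gland did not show (1248, 1241 and 2070.2). These silk gland signals lay under the blank spots (3401, 1807 and 3856), as did the midgut signal at day 7 (3748). The slope of SW-92 was 0.59 (adjusted p = 0.0102). It passed with the run code as a random or fixed block, but not without the fat body at day 7 (adjusted p = 0.0608).

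Without the body wall at day 7, 2 of the 6 rising probes were called (SW-27 and SW-92), and the same 2 without the midgut at day 7. Without the fat body at day 7 only SW-27 was. In 26 of the 34 probes every later body wall specimen lay above day 7, and in 21 of 34 this held in the fat body, but in 10 in the midgut and 9 in the silk gland. Of all 83 probes tested, 81.9% had every later body wall specimen above day 7, 71.1% in the fat body, 18.1% in the midgut and 12.0% in the silk gland. The body wall at day 7, alone in its run code, had blank spots of 113, and the later specimens 1110, 2851 and 2401. Its median over all 106 probes was 388, followed by 798, 1323 and 941. Stage and run cannot be told apart there, and the part of the blank spots was not tested. SW-27, SW-35, SW-46 and SW-53 had all later specimens above day 7 in all 4 tissues. In the silk gland, however, the step to the start of spinning was 0.14, 0.0, 0.10 and 0.13 log2 units, in this order. These steps are under the median slide difference of 0.181. SW-35 had 3198 and 3203 there, and its day 7 signal lay under the blank spots (3401). For SW-46, whose slope of 0.40 did not pass (adjusted p = 0.0895), the body wall signals were 7641, 16283, 22171 and 14489.

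**Figure D5:**
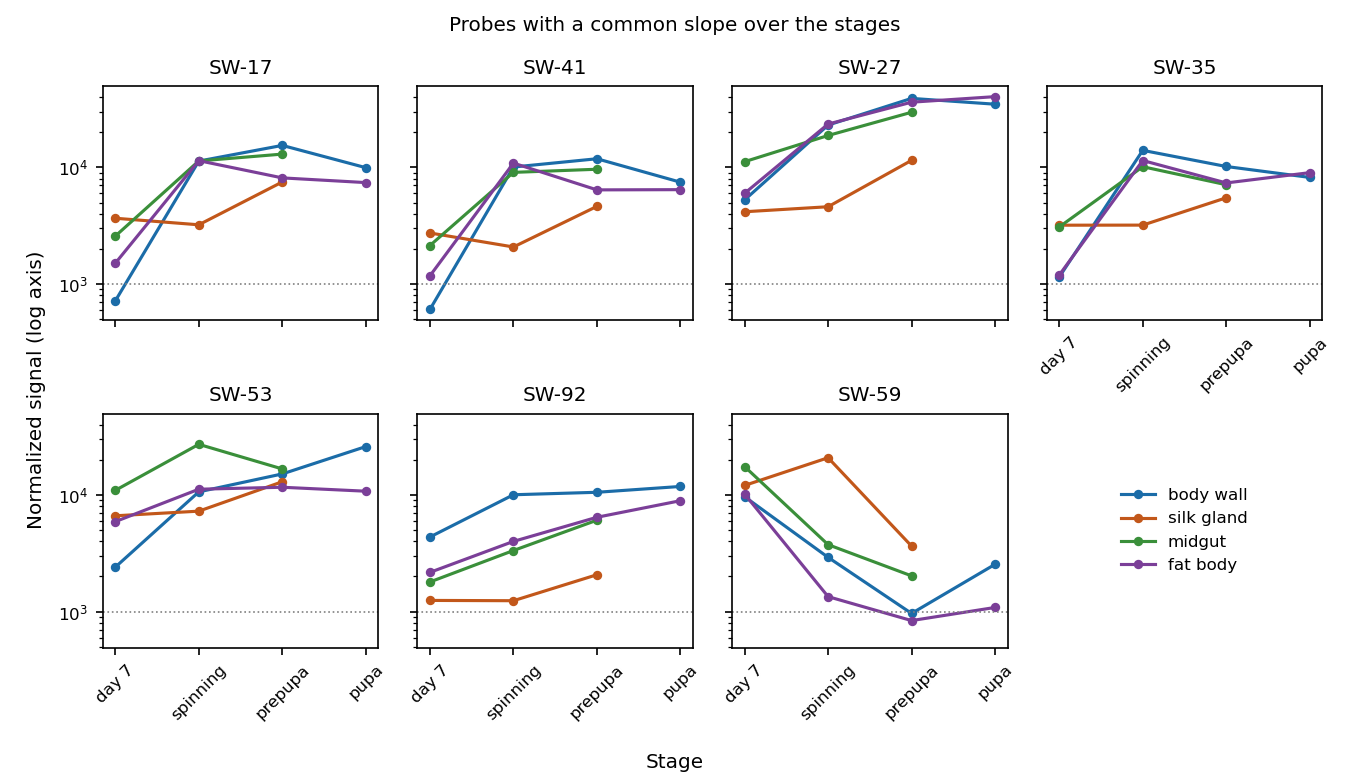
Normalized signal (log axis) of the 7 probes with a common slope past the threshold, by stage in each of the 4 tissues, 1 specimen per point, with the dotted line at 1000. SW-59 falls between day 7 and prepupae in all 4 tissues, and the other 6 rise, least in the silk gland for SW-17, SW-41, SW-35 and SW-92.

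Slopes within single tissues gave few calls. In the body wall 4 of the 34 rose (6.02% of the 83): SW-53 by 1.08 per stage, SW-76 by 1.02, SW-27 by 0.89 and SW-26 by 0.86, each at an adjusted p of 0.0441. For SW-76 the body wall had 1741, 7898, 15282 and 14404, and for SW-26 270, 857, 969 and 1835. The signals of SW-26 after day 7 lay under the blank spots (1110, 2851 and 2401), and only the pupal one reached 1000. None of the 4 probes passed with the run code as a random block, where the adjusted p was 0.0845 to 0.124, or without the body wall at day 7. In the silk gland (1.20% of the 83, 1 probe), the midgut (0%) and the fat body (0%), 0 of the 34 passed by limma. At an unadjusted p under 0.05 there were 0, 2 and 7 of the 34 in these tissues. Slopes that differed between tissues were found for 0 of the 34 and 0 of the 83 (0%) by the F test of limma, with a smallest adjusted p of 0.156 and with 1 of the 34 and 3 of the 83 at an unadjusted p under 0.05.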

How the data were processed

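Arrays of 1 colour (Cy3) were made for 64 hybridizations of 32 specimens. The authors took spot intensities from the scans, subtracted the local background, set net values of 0 or less to 10, replaced outlier spots, multiplied each array by a constant factor (based on U6 and 5S rRNA for the larval tissues, on a global value in metamorphosis) and deposited the mean normalized intensity of the 3 spots of a probe. The files also hold net intensities per spot and, as deposited, the percent of pixels over the local background plus 2 SD, whose median was 96.8% for larval signals of the 34 probes at 1000 or more.

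Here signals under 100 were set to 100, taken to log2 and averaged over slides a and b. Tests used limma 3.58.1 in R 4.3.3 (lmFit, eBayes with a variance trend) with Benjamini-Hochberg adjustment over all probes tested, 83 at 1000 or more in at least 3 of 14 specimens and 55 in at least 2 of 18. All groups shared 1 estimate of spread, since each tissue and stage has 1 specimen. By eBayes the spread of a probe was also drawn toward that of the other probes tested. These lie on the same arrays, so that very small p-values do not stand for more specimens. The p-values measure the spread between specimens around the model of each test. For tissue differences this was tissue and stage as additive factors, and for the common slope tissue and a linear stage term. The slopes within tissues had a linear stage term per tissue, and the sexes an additive model of tissue and sex. The methods' SAM was not used here. The members and lists were chosen with earlier results of these data known. Probes were named by their number of larval tissues and by the largest differences past the threshold, up to 5 a direction in each contrast, and SW-92 and further called probes were added after their values were seen. The metamorphosis arrays carried 3 run codes, of which 1 held only the body wall at day 7. The common slope fit was also run on simulated data. It called 46.4% of slopes of 0.5 and 96.3% of slopes of 1.0, and 0.5% and 1.5% of the unchanged probes. The simulated spread was independent between specimens. In the data, specimens of 1 run code had a consensus correlation of 0.597 in this fit, which the simulation does not cover. Slides of a specimen hold the same RNA. Alternatives were floors, filters, scaling, single slides, blocks and leaving out specimens. Python 3.11.15 with pandas 2.3.3 made the tables.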

Additional observations from a re-analysis of the deposited data

How the results depend on the processing

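Of 62 differences and slopes of single probes past the threshold, 26 passed in all 13 alternatives and 30 with any 1 specimen left out, and 0 changed direction. The count of 20 probes passing the tissue F test was 17 to 22 with 1 specimen left out, and those of 24 higher and 27 lower tissue differences were 19 to 26 and 19 to 30. The 6 rising common slopes became 2 without the filter, 1 with median-centred arrays or net signals, and 2 with the run code as a fixed or random block, and 1 to 8 with 1 specimen left out (2 without the body wall or the midgut at day 7, 1 without the fat body at day 7). The 1 falling slope became 3 with either median centring and stayed 1 with any specimen left out. The 4 rising slopes within a tissue became 0 with a floor of 10, without the filter, with either median centring, on slide b alone and with either block of the run code, 2 without a variance trend and 7 without the pupae, and 0 to 10 with 1 specimen left out: 0 without the midgut or the body wall at day 7 or the midgut at the start of spinning or as prepupae, 2 without the body wall of prepupae, 7 without that at the start of spinning, 9 without the fat body at the start of spinning and 10 without the pupal body wall. The 0 falling slopes became 2 without the pupae and 0 to 1 with 1 specimen left out (1 without the fat body at the start of spinning, the midgut of prepupae or the pupal body wall), and the 0 slopes that differed between tissues 0 to 1, the 1 being SW-28 without the midgut of prepupae. The 0 sex differences stayed 0 without any tissue.

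In a paired fit with the slide letter as a replicate block and the specimen as a random effect, 23 of the 34 probes passed the tissue F test, 9 common slopes rose, 1 fell, and 9 slopes within a tissue rose. The letters name slides of the same RNA. The number of members was 34, and 21 at a threshold of 2000, 47 at 500 and 31 to 34 with 1 specimen left out, the lowest without the male body wall. The causes were not tested. With 1 specimen per tissue and stage, a difference of stage within 1 tissue has no replicate, and signals near those of the blank spots limit the low probes.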
